A study of Mus musculus with 15 samples.

Results

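The 14-3-3 adaptor proteins are encoded in the mouse by a small family of genes, and the 6 members described here were chosen by symbol: Ywhab (14-3-3 beta), Ywhae (epsilon), Ywhag (gamma), Ywhah (eta), Ywhaq (theta) and Ywhaz (zeta). They are 6 of the 43472 gene symbols in the count tables, of which 13281 had at least 1 read in any library. Poly(A) RNA of extracellular vesicles (EVs), the membrane particles that cells release into the blood, had been sequenced in 15 libraries, of which 3 were wild type (WT)-derived, 6 dystrophic (Dys)-derived and 6 hypertrophic (Hyp)-derived. WT mice were C57BL/6 (black 6), dystrophic mice were Sgcb null, lacking the beta-sarcoglycan gene, and hypertrophic mice were MAGIC-F1 in the sample labels but Mstn-null in the methods of the study for these libraries, so that only the condition is used here. The mice were 3 to 6 months old, and each sample pooled the plasma EVs of 2 to 3 mice, whose RNA was preamplified before library preparation. The labels name serum as the source and the design text and methods name plasma. For 6 libraries (Dys 4 to 6 and Hyp 1 to 3), the library number in the title is crossed with that of the deposited counts, and the condition was taken from the labels. By title number, all WT libraries, Dys 1 to 3 and Hyp 1 to 3 belong to a lower series. Dys 4 to 6 and Hyp 4 to 6 belong to a higher series.

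14-3-3 proteins work as dimers that bind phosphorylated serine or threonine motifs on other proteins and thereby hold them in the cytosol, mask a site or fix their shape. Their partners include the RAF kinases, the FOXO transcription factors, the cell death protein BAD and the CDC25 phosphatases, and kinases such as AKT and protein kinase A write many of the motifs that they read. They are among the abundant soluble proteins of most cells, and in platelets 14-3-3 zeta binds the cytoplasmic tail of the von Willebrand factor receptor.

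The 6 genes have kept much of their coding sequence, which raises the question whether 50-base reads can tell them apart. Aligned over their coding sequences (GENCODE M21), the members were between 61.3% and 79.0% identical in pairs, highest for Ywhag and Ywhah and lowest for Ywhae and Ywhah. The following 50-base windows are the stretch of the coding sequence with most positions identical in all 6 genes (GRCm38/mm10, 5′ to 3′ on the strand of the gene). Stretches more alike in a single pair of genes were not searched for. Capitals mark the bases that differ from Ywhaz.
Ywhaz: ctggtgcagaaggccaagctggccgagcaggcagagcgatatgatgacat
Ywhab: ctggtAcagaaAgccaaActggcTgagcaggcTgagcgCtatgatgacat
Ywhaq: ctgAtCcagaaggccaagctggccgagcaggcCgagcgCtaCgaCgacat
Ywhag: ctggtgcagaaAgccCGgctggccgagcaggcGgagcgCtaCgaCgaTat
Ywhah: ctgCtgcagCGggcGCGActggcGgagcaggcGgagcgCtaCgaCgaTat
Ywhae: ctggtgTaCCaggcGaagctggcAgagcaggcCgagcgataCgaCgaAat

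The windows lie in coding exons at chr15:36790913-36790962 (minus strand) for Ywhaz, chr2:164011626-164011675 (plus) for Ywhab, chr12:21417027-21417076 (minus) for Ywhaq, chr5:135934342-135934391 (minus) for Ywhag and chr5:33019086-33019135 (plus) for Ywhah. The window of Ywhae joins 2 exons between positions 75733046 and 75751884 of chromosome 11 (plus). In this stretch, 33 of the 50 positions were identical in all 6 genes, and each member differed from the member closest to it there by at least 6 bases. No 50-base window of any annotated transcript was shared between 14-3-3 genes, Sfn included. Windows shared with other annotated transcripts made up 0% for Ywhab and Ywhae, 0.215% for Ywhag, 8.62% for Ywhah, 15.2% for Ywhaz and 28.9% for Ywhaq, so that the counts of Ywhaq are the least certain. Processed pseudogenes held most of these windows for Ywhah and Ywhaz, while Ywhaq shared 12.6% of its windows with the annotated transcripts of Cdk5rap2, which had 1106 reads in 4 libraries. Among the pseudogenes analysed, Gm12428 (sharing windows with Ywhah) had 5 reads and Ywhaq-ps2 had 1 in all 15 libraries together, and the others had none. The reads of 4 pseudogenes that share windows with Ywhaq, Ywhaq-ps3 (19.0% of its windows) and Gm21178 (8.38%) among them, were not analysed here. Ywhaq overlaps the antisense gene Gm4419, counted at 0 in every library, and Ywhae overlaps Gm26836. Since labels and methods differ on whether the kit was stranded, reads of overlapping genes cannot be told apart.

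The libraries differed widely in depth. Reads counted on genes ranged from 27227 (WT 1) to 32563362 (Dys 6), with medians of 601506 for WT, 2419660 for Dys and 3513267 for Hyp, and a gene with no read may have been present at up to 0.0921 CPM (counts per 1000000 reads on genes) in the deepest and 110 CPM in the shallowest library. This limit is the value of 3 reads and covers counting error only, because preamplified reads are not independent molecules. The targeted gene could not check the labels of 14 libraries, since Sgcb had no read there, all WT libraries included. It had 695 reads in Hyp 3, which is 1 of the 6 crossed libraries. An exchange of the crossed libraries between conditions would place Hyp 3 in Dys, the Sgcb-null condition. What these reads mean for its label was not tested. Mstn had no read in any library. Of 3 EV surface markers, Cd9 had reads in every library, and its mean over the 15 libraries was 12204 CPM. Cd63 had reads in 10 libraries (mean 73.5 CPM) and Cd81 in 11 (mean 170 CPM). Skeletal muscle markers reached at most 295 CPM in sum over 6 genes, with Myh4 at 0 in every library. Fewer EVs from a cell type and less of a transcript per EV cannot be told apart in such bulk samples.

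Transcripts of all 6 members were found in plasma EVs, and Ywhah and Ywhaz were found in every library. Having reads in all 15 libraries was uncommon, since 1.27% of the 13281 genes with any read did. Ywhag, encoding the gamma isoform, had reads in 14 libraries, Ywhae in 12, Ywhab in 10 and Ywhaq in 8, and 17.5% of all genes had reads in at least 8 libraries. By mean CPM over the 15 libraries, Ywhah ranked 100 and Ywhaz 174 among the 13281 genes. Ywhab ranked 627, Ywhae 703, Ywhaq 1003 and Ywhag 1223.

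**Figure D1:**
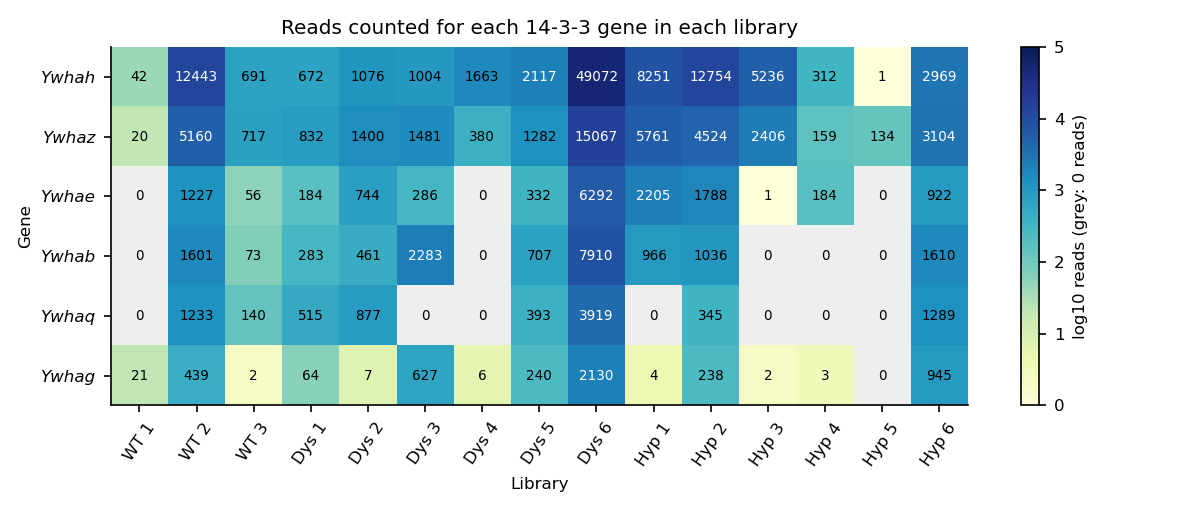
Reads counted for each 14-3-3 gene (rows, ordered by mean level per length) in each of the 15 libraries (columns). Colour gives log10 reads, grey cells hold 0 reads and the printed numbers are the raw counts. Ywhah and Ywhaz have reads in every column, while Ywhaq is empty in 7.

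Detection was close to all or none for Ywhab, Ywhae and Ywhaq, and Ywhag held 6 of the 8 low counts described next. Of the 90 pairs of a gene and a library, 16 had no read, 8 had 1 to 9 reads and 66 had at least 10. At the mean level of the other libraries of the same condition, 13 of the 16 empty pairs would have held at least 10 reads. Dys 4 was such a library: at 1608699 reads it had 1663 reads of Ywhah and 380 of Ywhaz but none of Ywhab, Ywhae or Ywhaq, and 6 of Ywhag. Hyp 3 was similar, with 5236 reads of Ywhah, 2406 of Ywhaz, 1 of Ywhae, 2 of Ywhag and none of Ywhab or Ywhaq.

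All 6 members were detected in 8 libraries. The number detected per library was 5 ± 1.73 (SD, n = 3) in WT, 5.33 ± 1.21 (n = 6) in Dys and 4.50 ± 1.52 (n = 6) in Hyp, and the 3 ranges overlapped, with 3 to 6 genes in WT and Dys and 2 to 6 in Hyp. With every library sampled down to 27227 reads, the means were 4.50, 4.95 and 3.68. The condition means thus lay within 1 SD of each other at either depth. No test was run on this number.

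Ywhah, the eta isoform, gave the highest level per length in most libraries. Per kilobase of union exon it reached 301 ± 202 CPM (SD, n = 15), against 163 ± 75.4 for Ywhaz, 63.8 ± 57.3 for Ywhae, 54.0 ± 63.0 for Ywhab, 38.2 ± 48.6 for Ywhaq and 17.8 ± 35.9 for Ywhag. It led in 11 of the 15 libraries, Ywhaz led in 3 (Dys 1, Dys 2 and Hyp 5) and Ywhab in Dys 3. The mean level of Ywhah per length exceeded that of Ywhaz by 138 CPM per kilobase (SD 166, exact two-sided sign-flip permutation test over 15 libraries, p = 0.00696), with Ywhah higher in 11 libraries and lower in 4.

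Ywhaz in turn exceeded Ywhae by 99.0 CPM per kilobase and was higher in 14 of 15 libraries, Hyp 4 being the exception (exact sign-flip permutation test, p = 0.000549). The remaining neighbours did not differ beyond their spread. The same exact permutation test gave p = 0.653 for Ywhae against Ywhab, p = 0.545 for Ywhab against Ywhaq and p = 0.251 for Ywhaq against Ywhag. Without WT 1, the lead of Ywhaq over Ywhag was 31.8 CPM per kilobase (exact permutation p = 0.0352), where with it the lead was 20.4. Over the 15 runs with 1 library left out, this permutation p ran from 0.0352 to 0.466. These 5 neighbour pairs were tested without adjustment, and the order they follow is itself that of the means. In the 9 libraries with matching numbers alone, the lead of Ywhah over Ywhaz was 51.7 CPM per kilobase (exact permutation p = 0.324), and Ywhab then stood just above Ywhae.

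**Figure D2:**
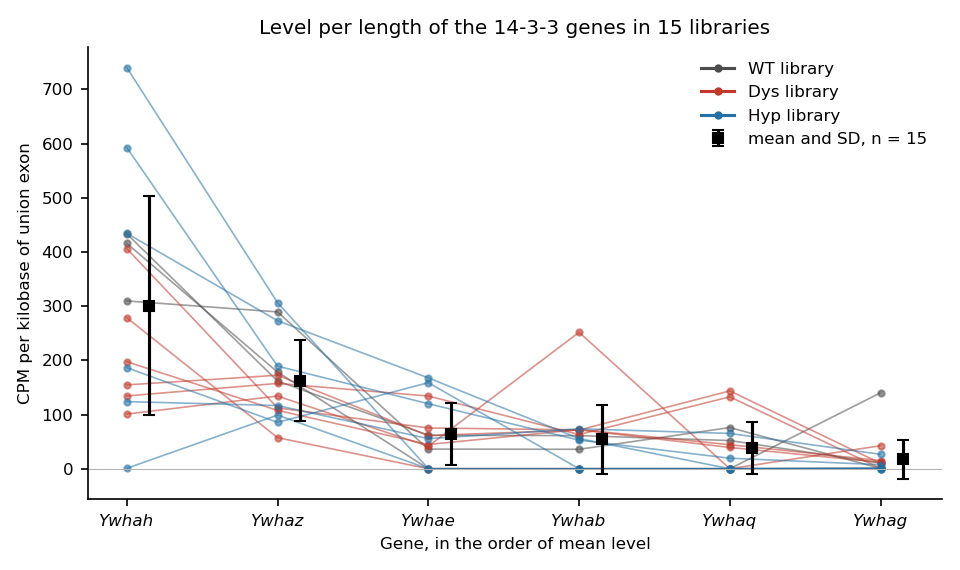
Level of the 14-3-3 genes in CPM per kilobase of union exon (vertical axis), 1 line per library coloured by condition, with black squares for the mean and bars for the SD over 15 libraries. Ywhah averages 301 and Ywhaz 163, and lines cross among the 4 genes to the right.

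The ratio of Ywhah to Ywhaz changed between libraries of the same condition. In reads, Ywhah was 2.10, 2.41 and 0.964 times Ywhaz in WT 1 to 3. Among Dys libraries the ratio ran from 0.678 in Dys 3 to 4.38 in Dys 4, and among Hyp libraries from 0.00746 in Hyp 5 to 2.82 in Hyp 2. The conditions overlapped in this ratio, and Hyp 5 stood alone, with 1 read of Ywhah beside 134 of Ywhaz. That library had 328710 reads on genes, and the other Hyp libraries would have predicted 507 reads of Ywhah in it. Together both genes held between 43.7% (Dys 3) and 100% (Hyp 5) of the 14-3-3 reads of a library.

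Ywhah and Ywhaz had lower mean levels in Dys than in WT, without a call by the test across all genes. Ywhah stood at 1543, 1608 and 1149 CPM in WT 1 to 3, and its lowest, median and highest values were 375, 653 and 1507 CPM in Dys and 3.04, 1152 and 2747 CPM in Hyp. Dys 6 lay above WT 3, so that WT and Dys overlapped, and Hyp spanned both. Means were 1433 ± 248 CPM (SD, n = 3) in WT, 787 ± 420 (n = 6) in Dys and 1285 ± 1073 (n = 6) in Hyp.

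Ywhaz, which encodes the zeta isoform, stood at 735, 667 and 1192 CPM in WT 1 to 3, between 236 and 711 CPM in Dys (median 508) and between 353 and 1262 CPM in Hyp (median 630). Dys 1 at 711 CPM lay above WT 2, and the other 5 Dys libraries lay below all WT libraries. Means were 864 ± 286 CPM (n = 3) in WT, 509 ± 169 (n = 6) in Dys and 735 ± 387 (n = 6) in Hyp.

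**Figure D3:**
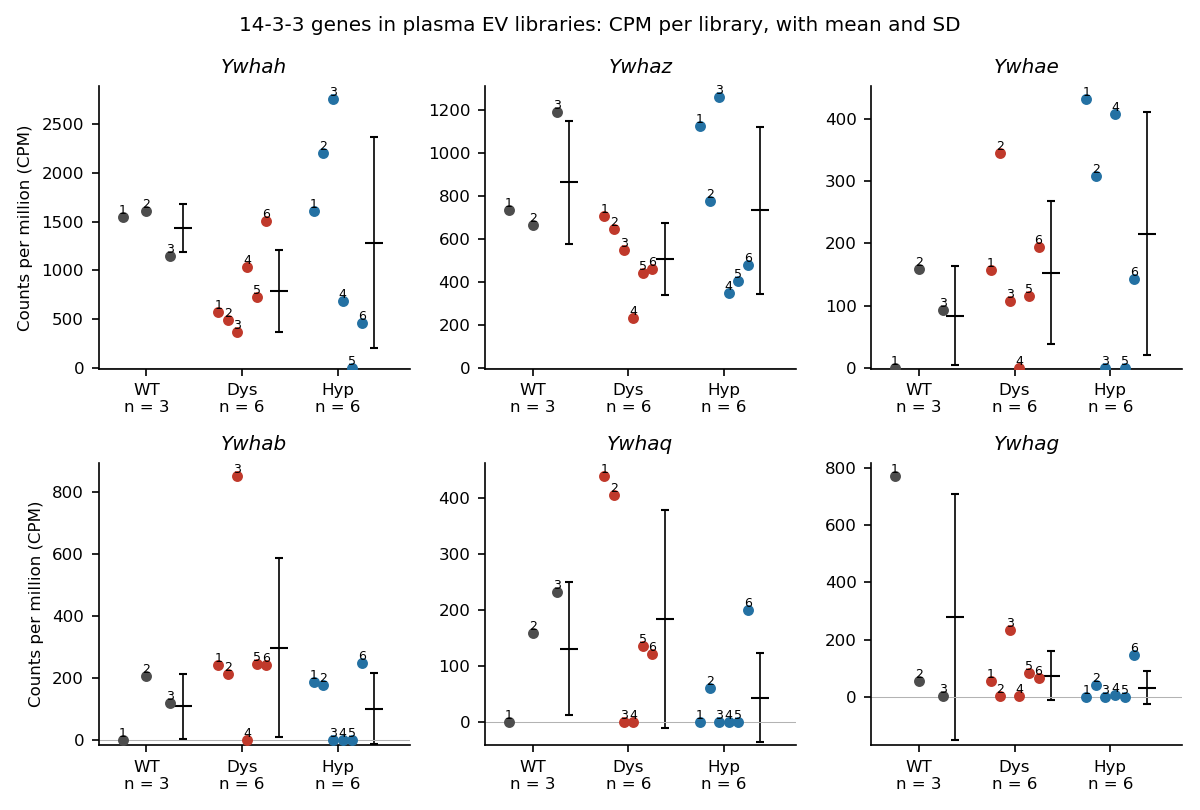
CPM of each 14-3-3 gene in every library, by condition (horizontal axis, points numbered by library), with the mean and SD of each condition as bars on the right of the points. Vertical scales differ between panels, and bars below 0 come from the SD. Points of the 3 conditions overlap in every panel.

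Across all genes, the edgeR quasi-likelihood test with Benjamini-Hochberg adjustment called 0 of the 6 members between Dys and WT, where it called 1 of 6887 genes (0.0145%). It called 0 members between Hyp and WT and 0 between Hyp and Dys, beside 0.0290% and 0.0145% of all genes. At an unadjusted p under 0.05 it also held 0 members in each comparison, against 2.02%, 8.02% and 12.0% of all genes, and DESeq2 called 0 members, while it called 1315, 1528 and 323 genes. The biological coefficient of variation of the edgeR fit was 3.04, and the standard errors of the members were wide to match. The log2 fold change from WT to Dys was -0.73 (SE 1.12, edgeR adjusted p = 0.979) for Ywhah and -0.84 (SE 1.37, adjusted p = 0.991) for Ywhaz. With the title series as covariate, these fold changes were -0.24 for Ywhah and -0.32 for Ywhaz. All WT libraries belong to the lower series.

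The exact permutation test on mean CPM, which used each gene alone, gave p = 0.0476 for Ywhah and also for Ywhaz between Dys and WT, where the smallest p possible is 0.0238 (84 splits, two-sided). The WT mean was 1.82 times the Dys mean for Ywhah and 1.70 times for Ywhaz. These were the 2 of the 6 members under 0.05. After Benjamini-Hochberg adjustment over all 13281 genes, the permutation p was 1 for both, and 0 genes passed. Unadjusted, 0.685% of all genes and 12.4% of the 169 genes with reads in all 15 libraries were under 0.05 in this comparison. The unadjusted p rose to 0.262 for Ywhah and 0.190 for Ywhaz in the exact permutation test with TMM-scaled library sizes, and to 0.929 and 0.881 with the 6 crossed libraries exchanged. Leaving out 1 Dys library at a time kept Ywhah under 0.05 only without Dys 6 and Ywhaz only without Dys 1 (exact permutation p = 0.0357 each), and without a WT library no p under 0.05 is possible (smallest 0.0714). Without Dys 4, Ywhab was higher in Dys than in WT by 249 CPM (exact permutation p = 0.0357), where with it the difference was 190 CPM (p = 0.190). Over the 9 runs with 1 library left out, this permutation p of Ywhab ran from 0.0357 to 0.5. Platelet markers, 8 of 8 with reads, summed to 20033 to 31623 CPM in WT, 9700 to 21828 CPM in Dys and 14290 to 34090 CPM in Hyp. Pf4 and Ppbp made up most of this sum, and the markers did not move together. Means in Dys and WT were 1111 and 1041 CPM for Gp9, 261 and 126 for Treml1, and 62.5 and 17.7 for Gp6. Pf4, Ppbp, Gp1bb, Itga2b and Clec1b had lower means in Dys than in WT. All 7 red cell markers, none of them at 0 in every library, had higher means in Dys than in WT. Their sum was 22933 to 88148 CPM in WT and 47208 to 155950 CPM in Dys. The part of the platelet and red cell transcripts in the levels of both genes was not tested. Leaving mitochondrial and hemoglobin genes out changes only the totals behind CPM. The exact permutation p was then 0.0714 for Ywhah and 0.0238 for Ywhaz, the smallest possible.

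As a family, the 6 genes took 0.279% to 0.305% of the reads in WT, 0.127% to 0.259% in Dys and 0.0411% to 0.401% in Hyp. The WT and Dys ranges did not overlap, which was so for 0.422% of single genes in CPM, and the Hyp range enclosed both. That share covers all genes with any read, and was not taken for sums of genes or for genes read in every library. With the crossed libraries exchanged, Dys would hold Hyp 1 to 3 at 0.336%, 0.357% and 0.401%, and its range would enclose that of WT. This sum follows Ywhah and Ywhaz, which hold most of the reads, and no test was run on it.

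Between Hyp and the other conditions, Ywhah and Ywhaz did not differ beyond the spread of Hyp. The exact permutation p for Hyp against WT was 0.857 for Ywhah and 0.619 for Ywhaz, and for Hyp against Dys it was 0.316 and 0.240. Of the 6 members, 0 had an unadjusted exact p under 0.05 in these comparisons, beside 0.414% and 1.70% of all genes. Hyp 1 to 3 were the highest Hyp libraries for both genes and Hyp 4 to 6 the lowest. In CPM, Ywhah stood at 1611, 2199 and 2747 in Hyp 1 to 3 and at 692, 3.04 and 459 in Hyp 4 to 6. Ywhaz stood at 1125, 780 and 1262 CPM in the first and at 353, 408 and 480 CPM in the last. Hyp 1 to 3 are the Hyp libraries with crossed numbers, and also those of the lower title series. Within Hyp, crossed numbers and title series cannot be told apart. In Dys, Ywhaz stood at 711, 649 and 552 CPM in libraries 1 to 3. It stood at 236, 444 and 463 CPM in libraries 4 to 6. Ywhah went the other way in Dys, at 574, 498 and 375 CPM against 1034, 733 and 1507 CPM. With the crossed libraries exchanged between conditions, Ywhaz was lower in Hyp than in Dys by 449 CPM (difference -449, exact permutation p = 0.00216, the smallest that 924 splits can give), where as labelled it was 226 CPM higher. This p was not adjusted. After the exchange, all Dys libraries are of the lower and all Hyp libraries of the higher title series. Condition and title series can then not be told apart.

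Ywhab, the beta isoform known as a partner of RAF kinases, was highest in Dys 3. It had no read in WT 1 and stood at 207 and 121 CPM in WT 2 and WT 3. In Dys its lowest, median and highest values were 0, 242 and 852 CPM, and in Hyp they were 0, 89.3 and 249 CPM. Besides Dys 3 and the empty Dys 4, the Dys libraries lay close together between 214 and 245 CPM, whereas Hyp 3 to 5 had none. Between Hyp and Dys the means were 103 ± 115 and 299 ± 287 CPM (n = 6 each, exact permutation p = 0.0887), and without Dys 4 or without Hyp 6 the exact permutation p was 0.0216 or 0.0433. Over the 12 runs with 1 library left out, this unadjusted p ran from 0.0216 to 0.177. The edgeR log2 fold change was -1.30 (SE 1.80).

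Ywhae, the epsilon isoform, had its highest levels in Hyp 1 at 431 CPM and Hyp 4 at 408 CPM. It had no read in WT 1 and stood at 159 and 93.1 CPM in WT 2 and 3, and its lowest, median and highest values were 0, 136 and 345 CPM in Dys and 0, 225 and 431 CPM in Hyp. The Hyp libraries fell apart, with 4 between 143 and 431 CPM, 1 read in Hyp 3 and none in Hyp 5. Means were 83.9 ± 79.7, 153 ± 114 and 215 ± 195 CPM (SD), and the exact permutation p was between 0.357 and 0.511 in the 3 comparisons. Its edgeR log2 fold changes were 0.56 (SE 2.33) for Dys against WT, 0.80 (SE 2.35) for Hyp against WT and 0.24 (SE 1.86) for Hyp against Dys.

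Ywhaq, the theta isoform first described in T cells, had no read in 7 libraries, 4 of them Hyp. It stood at 0, 159 and 233 CPM in WT 1 to 3, at 0, 128 and 440 CPM (lowest, median and highest) in Dys and at 0, 0 and 199 CPM in Hyp. Dys 1 and Dys 2 were the highest, at 440 and 406 CPM, and only Hyp 2 and Hyp 6 had reads among Hyp libraries. The exact permutation p for Hyp against Dys was 0.184 and the edgeR log2 fold change was -1.98 (SE 2.03).

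Ywhag, the gamma isoform, was detected widely but with few reads. It stood at 771, 56.7 and 3.32 CPM in WT 1 to 3, at 3.24, 60.0 and 234 CPM (lowest, median and highest) in Dys and at 0, 3.85 and 146 CPM in Hyp. The highest value, in WT 1, rests on 21 reads (95% Wilson interval 505 to 1179 CPM), and 7 of the 15 libraries held fewer than 10 reads. The edgeR log2 fold change of Hyp against WT was -2.34 (SE 2.70, adjusted p = 0.804), and between Hyp and Dys the exact permutation p was 0.374, or 0.0476 without Hyp 6. Over the 12 runs with 1 library left out, this permutation p ran from 0.0476 to 0.749. Without WT 1 the mean was 2.60 CPM higher in Hyp than in WT, where with it the mean was 244 CPM lower (difference -244).

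**Figure D4:**
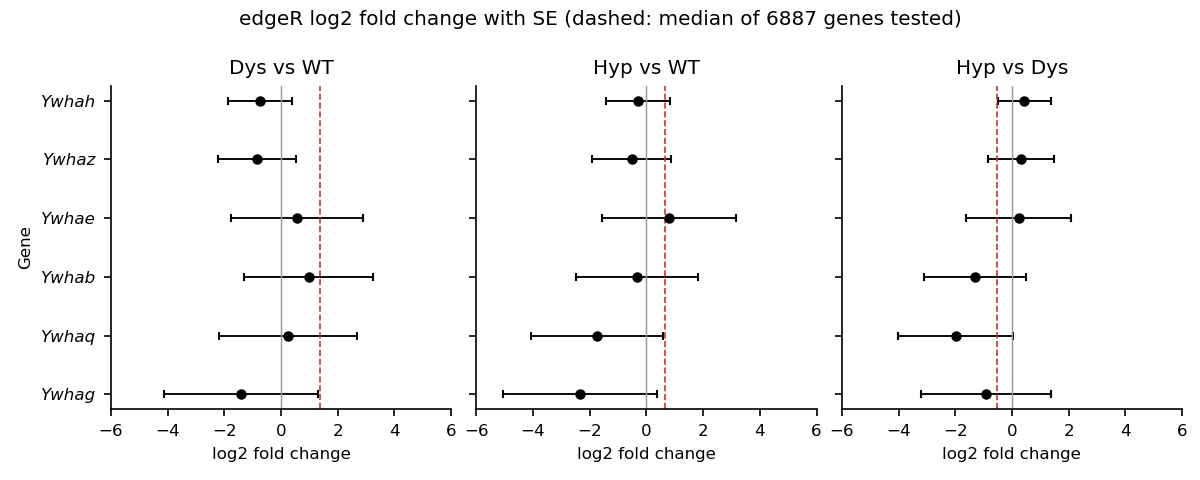
log2 fold change of each 14-3-3 gene (points) with its SE (bars) in the edgeR fit, for the 3 comparisons. The dashed line is the median of the 6887 genes tested. Every SE is above 0.9 on the log2 scale, and 0 lies within 1 SE of every point.

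The median log2 fold change of the 6 members was -0.24 for Dys against WT, -0.42 for Hyp against WT and -0.34 for Hyp against Dys, beside 1.38, 0.66 and -0.52 for all 6887 genes. The 3 comparisons share their samples in pairs. The median over all genes also depends on the scaling, since without TMM it was 1.57, 1.02 and -0.37, and that of the members was -0.13, -0.18 and -0.34. It depends more on single WT libraries and on the genes tested. Without WT 2 it was 8.15 for Dys against WT and 5.96 for Hyp against WT, beside -0.21 and -0.40 for the members. With every gene with at least 1 read tested, it was 2.11 for Dys against WT.

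Sfn, or stratifin (14-3-3 sigma), is the 14-3-3 gene of epithelia and a p53 target, and is no member of the set. It had reads in 8 libraries, reached 164 CPM in Hyp 3 and averaged 27.9 CPM over the 15 libraries, which ranked 3847 among 13281 genes. By mean CPM it was below all 6 members, but this order is not per length. The union exon of Sfn has 1613 bases, against 2568 (Ywhae) to 5500 (Ywhag) for the members.

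Of 31 genes encoding well-known 14-3-3 partners, 28 had a read in some library and 24 were tested by edgeR. None rose and none fell at an adjusted p under 0.05 in any of the 3 comparisons, and at an unadjusted p under 0.05 there were 0 of 24 for Dys against WT, 1 for Hyp against WT and 1 for Hyp against Dys, beside 2.02%, 8.02% and 12.0% of all genes. DESeq2 called 4 partners higher in Dys than in WT and also 4 higher in Hyp than in WT, each time Mark3, Rap1gap2, Tbc1d1 and Tsc2, which are named here after their values were seen and had no read in any WT library, and 0 between Hyp and Dys. Of all 6887 genes it called 18.9% higher in Dys and 18.8% higher in Hyp than in WT, and 4.69% in either direction between Hyp and Dys. Rgs18, a regulator of G protein signalling in platelets that 14-3-3 binds, was by far the highest partner, with reads in all 15 libraries and means of 1911 ± 993 CPM in WT, 1323 ± 693 in Dys and 3611 ± 1437 in Hyp. Gp1ba, a subunit of the von Willebrand factor receptor of platelets, had reads in 10 libraries and averaged 123 CPM over all 15, and Hdac7, a class IIa histone deacetylase, had reads in 7 and averaged 121 CPM over all 15. Cdc25c, Irs1 and Irs2 had no read in any library. The median log2 fold change of the partners tested was 0.52, 1.09 and 0.08 in the same order of comparisons.

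Among 12 kinases known to write 14-3-3 motifs, 11 had reads, 10 were tested and 0 were called in each comparison, with 0 at an unadjusted p under 0.05 as well (edgeR). Akt1, a kinase of insulin and growth factor signalling, averaged 226 CPM over all libraries, Prkd2 (protein kinase D2) 186 CPM and Prkacb, a catalytic subunit of protein kinase A, 156 CPM. Chek1 had no read. DESeq2 called 1 kinase, Rps6ka3, higher in Dys and in Hyp than in WT, and 0 between Hyp and Dys. Of all 6887 genes it called 18.9%, 18.8% and 4.69% in these comparisons. Mean levels of Rps6ka3 were 0.0431 CPM in WT, 64.0 in Dys and 109 in Hyp. All 5 catalytic subunits of the protein phosphatases that can remove such phosphates were tested, and 0 were called in each comparison, also at an unadjusted p under 0.05 (edgeR) and by DESeq2. Ppp1cb was the highest of them at 841 ± 740 CPM (SD, n = 15), a mean level above that of Ywhaz, followed by Ppp1ca at 359 CPM and Ppp2ca at 165 CPM. Levels between these genes are in reads and not per length.

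The genes whose levels followed a member most closely differed from member to member. By Spearman's rho of CPM over the 15 libraries, among 2315 genes with reads in at least 8, Ywhah was followed by Rac1, a small GTPase of the cytoskeleton (0.81), Cd9, a tetraspanin of EVs and platelets (0.79), and Kif2a, a kinesin of microtubules (0.75). Ywhaz was followed by Hpcal1 (0.85), Chmp1a (0.77) and Rtn4 (0.75), and Ywhab by Glipr2 (0.96), Eif4a1 (0.94) and Nsa2 (0.93). The closest to Ywhae were Slain2 (0.93), Nkiras2 (0.92) and Nfatc3 (0.92). For Ywhaq they were Ssr4 (0.95), Ctage5 (0.94) and Junb (0.94), and for Ywhag they were G3bp1 (0.90), Anapc11 (0.87) and Atp5a1 (0.86). These values are a description of the same libraries, which share depth and the same empty libraries, and the highest of 2315 values is high by choice. Between members, rho was highest for Ywhah and Ywhaz (0.61) and lowest for Ywhab and Ywhah (-0.35).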

How the data were processed

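Bulk RNA-seq of EVs from 15 pooled samples was analysed. Per the labels and the methods of the study, the authors preamplified the RNA, aligned single 50-base reads with TopHat to mm10 and deposited raw counts per gene symbol, with HTSeq and DESeq also named in the submitters' processing notes. The annotation is not given in the sources used here. The 5 summary rows of each table, which name no gene and hold 57.9% to 99.2% of its numbers, were left out. CPM are counts per 1000000 gene reads. Annotation and sequences came from GENCODE M21 (GRCm38), aligned with MAFFT 7.526.

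Tests were edgeR 4.0.16 (R 4.3.3; TMM, filterByExpr, quasi-likelihood, all 15 libraries, adjusted p under 0.05, SE from the F statistic), exact two-sided permutation tests of mean CPM (smaller one-sided p times 2) for every gene with a read, and sign-flip permutation tests of levels per length. DESeq2 1.42.0 was an alternative. The procedures were tested on simulated data. For edgeR, recovery of set changes was required only at a spread far below that of these libraries (biological coefficient of variation 3.04). How many changes it recovers at their own spread is not given here. No tables held identical values. Replicate numbers were given in accession order and pair nothing. p-values measure the spread between pooled samples. The members and lists were chosen with earlier results of these data known. Named in the lists were genes past adjusted p under 0.05 and the 3 highest by mean CPM, and for each member the 3 genes with the highest rho.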

Additional observations from a re-analysis of the deposited data

Results flagged for a closer look

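Of 12 sets of 6 libraries tested for a value far from the others (each member in Dys and in Hyp, Dixon test), 4 held such a value. The test flags about 1 in 20 sets of normally distributed values. These CPM are skewed and hold zeros, so that rate does not apply to them. The sets share libraries, and all flags came from Dys 3 and Hyp 6. In Dys 3, Ywhab stood at 852 CPM and the next highest Dys library at 245 CPM. In the same library, Ywhag stood at 234 CPM and the next at 83.1 CPM. In Hyp 6, Ywhag stood at 146 CPM and the next highest Hyp library at 41.0 CPM, and Ywhaq stood at 199 CPM and the next at 59.5 CPM. Dys 3 had 2680782 and Hyp 6 had 6461652 reads on genes.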

How the results depend on the processing

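The count of members called by edgeR stayed at 0 under all alternatives run, DESeq2 and each library left out included. The number of members detected kept within 1 SD under every alternative. In mean order, Ywhah, Ywhaz and Ywhag kept their places under all alternatives, and at least 4 of the 6 genes kept theirs. In the shallowest library, of 27227 reads, a count of 0 allows a level of up to 110 CPM. No paired analysis was possible because the replicate numbers were given in accession order.

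The following changed, and the cause was not tested. Members with exact permutation p under 0.05 between Dys and WT, 2 as labelled, numbered 0 with TMM-scaled library sizes, 1 without mitochondrial and hemoglobin genes, 0 with the crossed libraries exchanged, 0 in the 9 libraries with matching numbers (where 3 against 3 cannot go below 0.1) and 0 to 1 with a library left out. Of all 13281 genes, 91 had such a p between Dys and WT as labelled, and 70 with TMM-scaled library sizes. The number was 92 without mitochondrial and hemoglobin genes and 92 with the exchange. It was 0 in matching libraries and 0 to 247 with a library left out. With the crossed libraries exchanged there were 2 members between Hyp and WT and 1 between Hyp and Dys. With a library left out there were 0 to 2 between Hyp and Dys. Numbers over all genes for these comparisons with Hyp are not given here.

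All genes called by edgeR (1, 2 and 1 for Dys against WT, Hyp against WT and Hyp against Dys) became 1315, 1528 and 323 with DESeq2, 0, 0 and 0 with every gene with a read and also without mitochondrial and hemoglobin genes, 3 for Dys against WT without TMM, 2 and 0 for Dys against WT and Hyp against Dys with the libraries exchanged, and 3 and 0 with matching libraries only. With a library left out they were 1 to 2, 1 to 3 and 0 to 2. The edgeR setting without mitochondrial and hemoglobin genes kept the mitochondrial ribosomal RNAs Rnr1 and Rnr2, which the permutation setting left out.

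With the crossed libraries exchanged, the sign turned for Ywhab in Hyp against WT (13.4 CPM, log2 fold change 0.19), for Ywhaq in Dys against WT (log2 -0.15), and in Hyp against Dys for Ywhae (-81.5 CPM, log2 -0.70), Ywhah (-596 CPM, log2 -0.64), Ywhaz (-449 CPM, log2 -0.97) and Ywhag (log2 0.52). In matching libraries only, it turned in Hyp against Dys for Ywhae (-19.3 CPM, log2 -0.51), Ywhah (-97.6 CPM, log2 -0.57) and Ywhaz (-224 CPM, log2 -0.86). On the log2(CPM + 1) scale it turned for Ywhae (-0.58) and Ywhah (-0.55). Per length in matching libraries only, Ywhah minus Ywhaz was 51.7 and Ywhae minus Ywhab -0.86 CPM per kilobase.

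With a library left out, CPM differences against WT ranged in Dys from -340 to 44.0 for Ywhag and from -12.3 to 104 for Ywhaq, and in Hyp from -61.4 to 42.1 for Ywhab, -381 to 2.60 for Ywhag, -440 to 108 for Ywhah and -235 to 33.9 for Ywhaz. The log2 fold changes ranged in Dys against WT from -1.98 to 0.90 for Ywhag and -0.33 to 0.97 for Ywhaq, in Hyp against WT from -0.89 to 0.26 for Ywhab, -0.59 to 0.033 for Ywhah and -0.84 to 0.026 for Ywhaz, and in Hyp against Dys from -0.13 to 0.50 for Ywhae. Levels per length ranged from -1.06 to 22.1 for Ywhab minus Ywhaq, -0.82 to 25.5 for Ywhae minus Ywhab and 12.3 to 31.8 for Ywhaq minus Ywhag.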
